A study of Mus musculus with 6 samples.

Results

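The genes followed here carry glucose into heart muscle, break it down to pyruvate and lactate, and store it as glycogen. The set was given as a list of 35 genes, and a gene counted as measured when the platform annotation gave its symbol alone to a probe set. The brightest such probe set over all arrays stood for the gene. In this way 32 of the 35 genes were found, of 19938 genes named on the array. They comprised 3 glucose transporters, 15 genes of the glycolytic steps, 4 of lactate handling and 10 of glycogen. No probe set carried the symbol of Gpi1, Pfkfb1 or Eno1 alone, so these 3 genes are not described. All 32 measured genes passed the filter on dim probe sets.

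Left ventricles of male C57BL/6 mice were compared between 3 MURC knockout samples, aged 11, 11 and 13 weeks, and 3 wild-type samples, aged 13, 13 and 12 weeks. MURC is the older name of cavin-4, a caveola coat protein of muscle encoded by Cavin4. The labels name no drug or other treatment for either genotype. The labels give neither the making of the allele nor whether each sample came from its own animal, so the tests measure the spread between these samples. Each sample was read on 1 Affymetrix expression array, whose deposited log2 signals were used without further scaling.

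Heart muscle takes up glucose through the basal transporter GLUT1 and through GLUT4, which insulin and contraction bring to the cell surface. Glycolysis then turns glucose 6-phosphate into pyruvate, with phosphofructokinase as its main point of control, and glycogen holds a reserve of glucose that phosphorylase releases. The adult heart burns mostly fatty acids but keeps muscle isoforms of many of these enzymes at high levels. Signals of different probe sets depend on the probes as well as on the transcript, so the brightest isoform named at a step below is a statement about signal, not about amounts of RNA.

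Cavin4 followed the labels on every array, with signals of 5.38, 5.74 and 5.59 in the knockout against 8.75, 8.62 and 8.07 in the wild type. Its log2 change was -2.91, or 7.52-fold lower (limma adjusted p = 0.012), and the adjusted p was 0.0658, 0.119 and 0.0782 without knockout replicates 1 and 3 and wild-type replicate 1. Array medians lay between 4.60 and 4.71. All 8 markers of ventricular muscle cells were bright, with mean log2 signals from 11.54 to 13.15, and their summed signal was 15.62 to 15.64 in the knockout against 15.63 to 15.65 in the wild type. Knockout replicate 2 was the highest array on all 4 atrial markers and stood furthest apart in 2 of them. Its Myl7 was 7.22 against 3.61 to 4.11 on the other 5 arrays, and its Myl4 8.67 against 5.41 to 5.61. Its Nppa was 11.44 against at most 11.13, and its Sln, a dim gene, 3.49 against at most 3.12. The 4 markers summed to 10.84 to 11.71 in the knockout and 10.72 to 11.18 in the wild type. Counts are therefore also given without knockout replicate 2. Of 8 leukocyte markers 7 were measured, 6 of them lower in the knockout, and their summed signal was 9.50 to 9.67 in the knockout against 9.77 to 10.13 in the wild type. The 5 markers of smooth muscle and pericytes were all higher and summed to 10.42 to 10.52 in the knockout against 10.32 to 10.42 in the wild type. The part of these cell types in the results below was not tested, and in whole tissue fewer cells of a type cannot be told apart from less RNA per cell.

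None of the 32 genes passed the adjusted threshold of 0.05 in limma, where 0.00402% of all 24898 probe sets tested did, and the smallest adjusted p among them was 0.141, for Pgam2. The unadjusted p was under 0.05 for 8 of 32 genes (25%), against 13.7% of all probe sets tested and 11.9% of those with 1 gene symbol. By direction, 3 of the 32 genes were higher in the knockout at this p, against 4.71% of all probe sets tested. Another 5 of the 32 were lower, against 9.02%. The higher genes were Pgam2, Pfkl and Pfkm, and the lower ones Slc2a1, Slc2a4, Eno3, Aldoa and Ugp2. Signals of the genotypes did not overlap for 12 of the 32 genes (37.5%), against 19.0% of all probe sets. Without overlap, 5 of the 32 genes were higher in the knockout, against 6.12% of all probe sets, and 7 of the 32 were lower, against 12.9%.

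The changes were small and ran both ways. The median log2 change over the 32 genes was -0.025, beside -0.037 over all probe sets tested, with 15 genes higher and 17 lower. The median size of a change was 0.09 without regard to sign, beside 0.11 over all probe sets, and 17 of the 32 genes differed by less than 0.1. By role, the median log2 change was -0.17 for the 3 transporters, 0.02 for the glycolytic steps, -0.003 for lactate handling and -0.04 for glycogen. After quantile normalization these medians were -0.15, 0.05, 0.03 and 0.005, so the sign of the last 2 roles depends on the scaling. The median of the glycolytic steps was below 0 when knockout replicate 1 or wild-type replicate 2 was left out, at -0.015 and -0.003. The count of 8 genes rests on single arrays. It became 4 (12.5%, beside 11.5% of all probe sets) without knockout replicate 1 and 4 (12.5%, beside 12.4%) when wild-type replicate 2 was dropped, so that in both cases the set lay at the share of all probe sets. Leaving out knockout replicates 2 and 3 gave 5 and 5 (15.6%, beside 12.0% and 9.28%), and leaving out wild-type replicates 1 and 3 gave 10 and 8 (31.25% and 25%, beside 12.5% and 13.4%). The ages differ between the genotypes, and with age as a covariate 9 genes had an unadjusted p under 0.05 (28.1%, beside 13.9%). Slc2a4 and Pfkl were then no longer among them, and Pfkp, Pgam1 and Ldhb were. Slc2a1 and Pgam2 were the 2 genes that stayed under an unadjusted p of 0.05 with each of the 6 arrays left out.

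**Figure D1:**
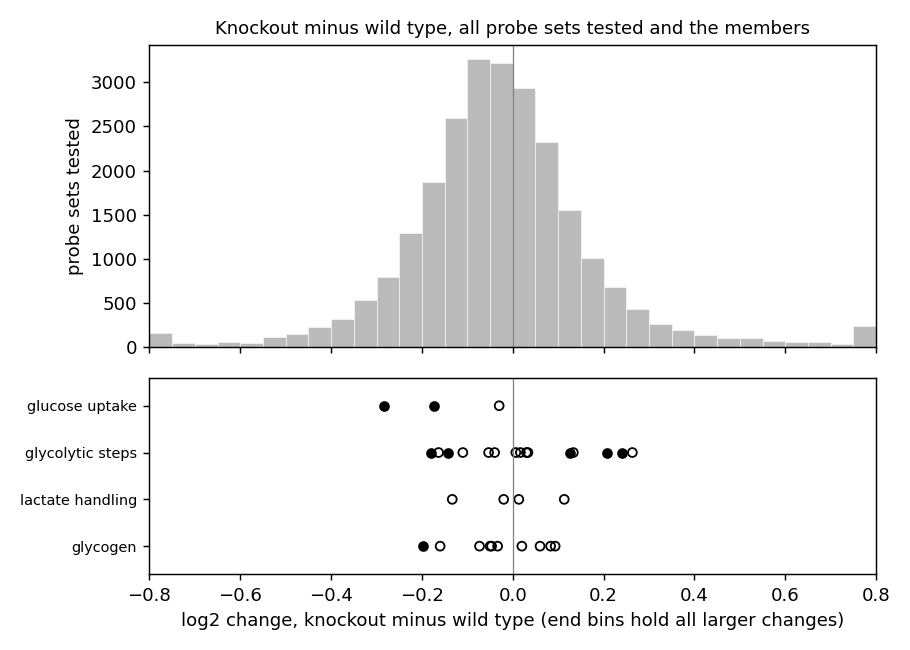
Upper panel: the number of probe sets tested (vertical axis) by log2 change, knockout minus wild type (horizontal axis), with all larger changes in the end bins. Lower panel: the 32 measured genes by role, filled where the unadjusted p was under 0.05. The filled points lie on both sides of 0, between -0.28 and 0.24, within the bulk of the probe sets above them.

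Of the 3 glucose transporters, GLUT1 and GLUT4 measured lower on all 3 knockout arrays, and GLUT3 overlapped between genotypes. Among all probe sets tested, 12.9% were lower in the knockout without overlap, and 19.0% did not overlap in either direction. Slc2a1, which encodes GLUT1, had log2 signals of 7.09, 7.28 and 7.25 in the knockout against 7.50, 7.54 and 7.43 in the wild type. The brightest knockout array lay 0.15 below the dimmest wild-type array. The mean log2 signals were 7.21 ± 0.10 and 7.49 ± 0.06 (SD, n = 3), a change of -0.28 with a 95% confidence interval from -0.46 to -0.11, or 1.22-fold lower (limma adjusted p = 0.181). Over 16 alternative ways of processing the change of Slc2a1 stayed between -0.32 and -0.225.

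Slc2a4, which encodes GLUT4, was the brightest transporter on all 6 arrays. Its signals were 9.64, 9.69 and 9.76 in the knockout against 9.86, 9.85 and 9.90 in the wild type, again without overlap. The log2 change was -0.17 (95% confidence interval -0.30 to -0.04, limma adjusted p = 0.243), or 1.13-fold lower. Slc2a3, which encodes the high-affinity transporter GLUT3 best known from neurons, was much dimmer. It measured 4.96, 4.75 and 4.68 in the knockout against 4.87, 4.82 and 4.79 in the wild type, with overlap and a change of -0.03. Slc2a1 is also made by endothelial cells, whose markers, 6 of 6 measured, summed to 11.32 to 11.38 in the knockout against 11.19 to 11.46 in the wild type.

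**Figure D2:**
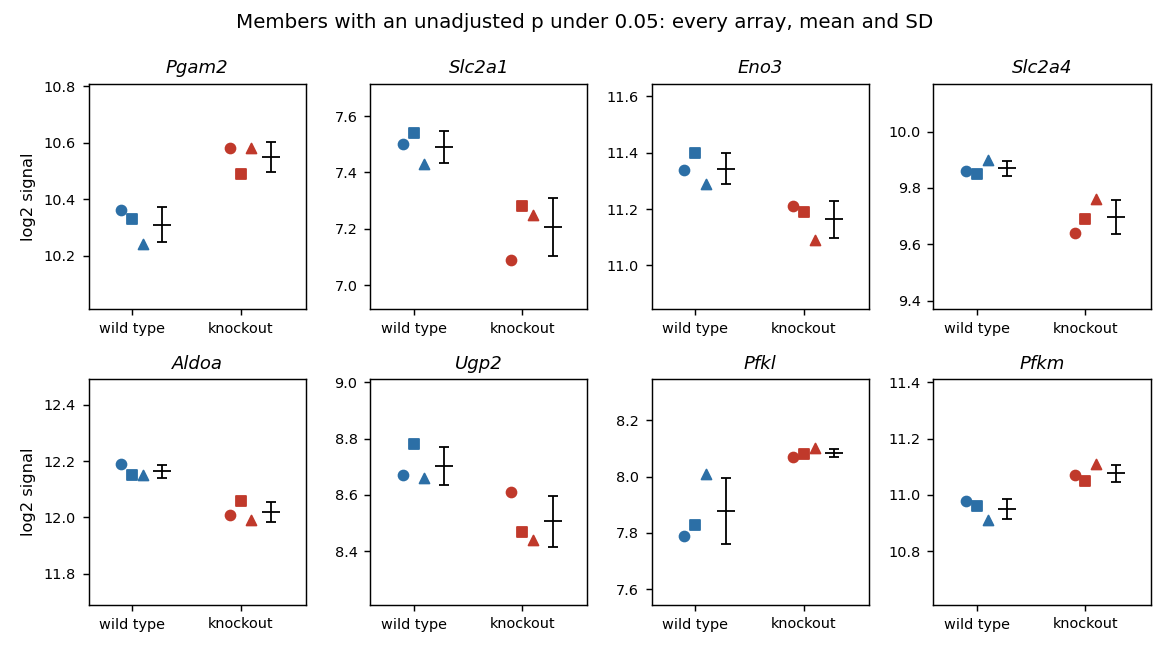
Log2 signal (vertical axis, spanning 0.8 in every panel) of the 8 genes with an unadjusted p under 0.05, in wild-type and knockout arrays. Circles, squares and triangles are replicates 1, 2 and 3, and the bars give the mean and SD of 3 arrays. In every panel the genotypes do not overlap, and the largest gap between them is 0.15, for Slc2a1.

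Hexokinase traps glucose in the cell as glucose 6-phosphate. Hk2, the insulin-regulated hexokinase of muscle, measured 9.73, 9.73 and 9.86 in the knockout against 9.71, 9.74 and 9.77 in the wild type. These values overlapped, with a log2 change of 0.03 and a 95% confidence interval from -0.10 to 0.17. Hk1, the hexokinase of most tissues, had 2 probe sets. The brighter one, at a mean of 9.28, lists 1 accession that is shared with 16 probe sets carrying several symbols, all of which include the ribosomal protein gene Rpl17, so its signal may not be that of Hk1 alone. The other lists 4 RefSeq transcripts and measured 8.44, 8.46 and 8.25 in the knockout against 8.46, 8.45 and 8.43 in the wild type, a change of -0.06. On either probe set the genotypes overlapped.

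The phosphofructokinase subunits, which form the enzyme that commits glucose to glycolysis, all measured higher on the knockout arrays. Among all probe sets tested, 6.12% were higher in the knockout without overlap. Pfkm, the muscle subunit and the brightest of the 3 on all arrays, had signals of 11.07, 11.05 and 11.11 in the knockout against 10.98, 10.96 and 10.91 in the wild type. Its log2 change was 0.13 (95% confidence interval 0.01 to 0.24, limma adjusted p = 0.322). Pfkl, the liver-type subunit, had signals of 8.07, 8.08 and 8.10 against 7.79, 7.83 and 8.01. The knockout arrays of Pfkl lay within 0.03 of each other, and wild-type replicate 3 came close to them. Its log2 change was 0.21 (95% confidence interval 0.03 to 0.38, limma adjusted p = 0.29). Pfkp, the platelet-type subunit, measured 7.76, 7.81 and 7.82 against 7.71, 7.65 and 7.24, and its change of 0.26 became 0.12 without wild-type replicate 3. Each of the 3 changes kept its sign in all 16 alternatives, but leaving out an array cannot turn a change without overlap. Several other settings keep the same change. An unadjusted p under 0.05 was found in 9 of the 16 for Pfkm, 10 for Pfkl and 5 for Pfkp.

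The bifunctional enzymes that make and remove fructose 2,6-bisphosphate, the activator of phosphofructokinase, overlapped between genotypes. Pfkfb2, the heart isoform, was the brighter of the 2 measured and varied widely, with 8.21, 8.41 and 8.81 in the knockout against 8.16, 8.50 and 8.37 in the wild type. Its change of 0.13 became -0.03 without knockout replicate 3. Pfkfb3, the inducible isoform, measured 5.25, 5.37 and 5.14 against 5.28, 5.27 and 5.33, a change of -0.04.

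Aldolase splits fructose 1,6-bisphosphate into 2 triose phosphates. Aldoa, the muscle isoform and the brightest of the 32 genes, had signals of 12.01, 12.06 and 11.99 in the knockout against 12.19, 12.15 and 12.15 in the wild type. All 3 knockout arrays were lower, by at least 0.09, and the log2 change was -0.14 (95% confidence interval -0.25 to -0.03, limma adjusted p = 0.253). Aldoc, the brain isoform, had a mean of 3.55, close to the filter at 3.45, and a change of -0.11 with overlap. The triose enzymes that follow hardly differed. Tpi1, triosephosphate isomerase, and Pgk1, phosphoglycerate kinase, measured changes of 0.01 and 0.02, with 95% confidence intervals from -0.13 to 0.15 and from -0.11 to 0.14. The 3 probe sets of Pgk1 moved together, and 2 of them held identical values.

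Phosphoglycerate mutase and enolase, the next 2 steps, have muscle isoforms that lay in opposite directions. Pgam2, the muscle mutase, had signals of 10.58, 10.49 and 10.58 in the knockout against 10.36, 10.33 and 10.24 in the wild type. The knockout arrays were all higher, by at least 0.13. The mean log2 signals were 10.55 ± 0.05 and 10.31 ± 0.06 (SD, n = 3), a change of 0.24 with a 95% confidence interval from 0.11 to 0.37, or 1.18-fold higher (limma adjusted p = 0.141). After quantile normalization the adjusted p of Pgam2 was 0.0445 with a change of 0.29, and over the 16 alternatives it ranged from 0.0445 to 0.355.

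Eno3, the muscle enolase and the only enolase of the set that was measured, had signals of 11.21, 11.19 and 11.09 in the knockout against 11.34, 11.40 and 11.29 in the wild type. The knockout arrays were all lower, by at least 0.08, with a log2 change of -0.18 (95% confidence interval -0.31 to -0.05, limma adjusted p = 0.243). Pgam1, the mutase of most tissues, measured 7.84, 7.82 and 7.30 against 7.76, 7.87 and 7.82. Knockout replicate 3 alone was low on all 3 of its probe sets, of which 2 hold identical values. The change of -0.16 became 0.01 without that array and -0.38 with age as a covariate. Pkm, pyruvate kinase, ended the pathway with overlapping signals of 10.57, 10.31 and 10.33 against 10.47, 10.25 and 10.40, a change of 0.03.

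**Figure D3:**
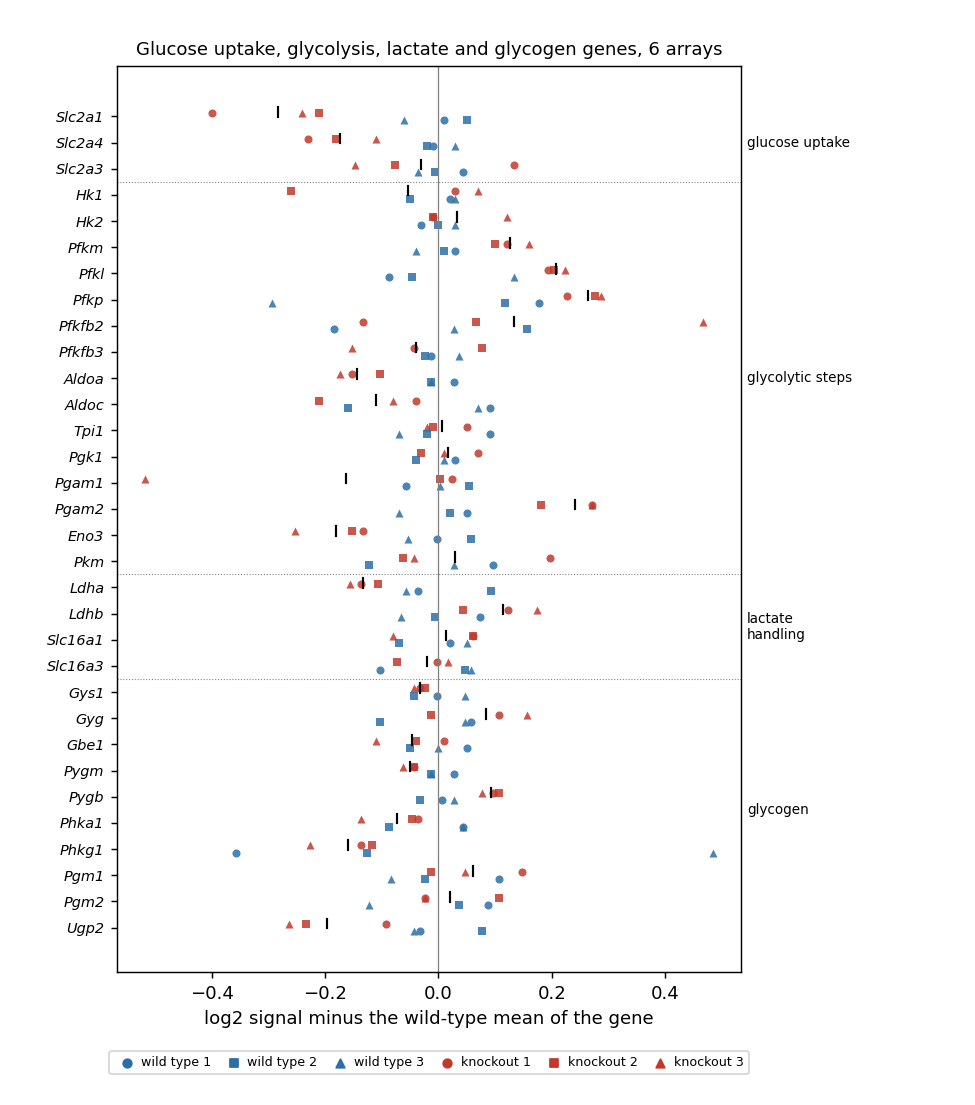
Log2 signal of the 32 measured genes on each of the 6 arrays, minus the wild-type mean of the gene (horizontal axis), with genes in rows grouped by role. Blue symbols are wild-type and red symbols knockout arrays, with a different shape for each replicate, and black ticks mark the knockout mean. Single arrays stand apart for Pgam1 (knockout replicate 3), Pfkfb2 (knockout replicate 3), Pfkp (wild-type replicate 3) and Phkg1 (wild-type replicate 3).

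Promoter sequences are shown for the 4 genes of the 8 above that have exactly 1 promoter in the RefSeq table of GRCm38.p6, because they include both the transporter and the mutase with the smallest p and genes that measured in opposite directions. Each runs 5′ to 3′ on the strand of the gene, from 250 bases before the start to 50 after it. The start used for Eno3 lies inside the annotated span of the gene, which runs from 70653125 to 70662513. Slc2a1 lies on chromosome 4 at chr4:119108495-119108794 (plus strand), Pfkl on chromosome 10 at chr10:78009758-78010057 (minus strand), Pgam2 on chromosome 11 at chr11:5803747-5804046 (minus strand) and Eno3 on chromosome 11 at chr11:70656926-70657225 (plus strand). Capitals mark matches on either strand to 3 short motifs, the core of the hypoxia response element ACGTG, the GC box GGGCGG and a MEF2 core CTANNNNTA, and adjoining matches of the GC box run together.
Slc2a1: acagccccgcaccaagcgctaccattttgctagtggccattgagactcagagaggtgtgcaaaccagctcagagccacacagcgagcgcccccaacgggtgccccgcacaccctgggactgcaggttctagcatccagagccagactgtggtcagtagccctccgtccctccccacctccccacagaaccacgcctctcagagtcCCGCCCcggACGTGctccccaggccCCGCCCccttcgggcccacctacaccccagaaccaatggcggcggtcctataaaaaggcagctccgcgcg
Pfkl: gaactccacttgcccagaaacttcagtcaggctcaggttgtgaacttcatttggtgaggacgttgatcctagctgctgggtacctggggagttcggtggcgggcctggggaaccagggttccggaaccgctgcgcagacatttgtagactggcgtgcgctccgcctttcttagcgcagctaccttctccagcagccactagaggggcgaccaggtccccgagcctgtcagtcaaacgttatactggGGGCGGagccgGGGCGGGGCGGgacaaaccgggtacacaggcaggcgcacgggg
Pgam2: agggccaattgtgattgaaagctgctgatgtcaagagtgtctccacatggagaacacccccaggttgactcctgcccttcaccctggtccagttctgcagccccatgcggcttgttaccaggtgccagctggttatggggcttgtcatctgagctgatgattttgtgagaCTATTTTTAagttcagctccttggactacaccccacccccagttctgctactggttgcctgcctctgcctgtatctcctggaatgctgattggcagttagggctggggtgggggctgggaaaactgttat
Eno3: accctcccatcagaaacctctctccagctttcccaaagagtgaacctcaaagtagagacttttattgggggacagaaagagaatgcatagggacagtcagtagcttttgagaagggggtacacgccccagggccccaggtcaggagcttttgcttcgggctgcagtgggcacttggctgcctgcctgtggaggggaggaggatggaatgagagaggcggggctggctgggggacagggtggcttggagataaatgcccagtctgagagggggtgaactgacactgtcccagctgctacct
The Slc2a1 window held 1 match to the hypoxia response core and 2 GC boxes, and the Pfkl window 3 GC boxes, 2 of them overlapping in the run of capitals. The Pgam2 window held the MEF2 core once and neither of the other motifs, and these letters were in none of the Eno3 window. Of all 32851 promoters in the table, 19.6% held the hypoxia response core, 35.7% the GC box and 21.0% the MEF2 core. Of 43 promoters of 30 measured genes of the set, 55.8%, 58.1% and 14% did. The motifs were chosen after the sequences were seen, and a gene with several promoters counted more than once. The difference between these shares was not tested. A match describes the sequence and does not show a bound factor.

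Lactate dehydrogenase interconverts pyruvate and lactate, and its isoforms pointed apart. Ldha, the isoform of working skeletal muscle, had signals of 10.76, 10.79 and 10.74 in the knockout against 10.86, 10.99 and 10.84 in the wild type. The genotypes did not overlap, and the log2 change was -0.13 with a 95% confidence interval from -0.27 to 0.002 (limma adjusted p = 0.37). Ldhb, the heart isoform, measured 11.12, 11.04 and 11.17 against 11.07, 10.99 and 10.93, a change of 0.11 with overlap. Its other probe set measured 10.98, 10.94 and 11.16 against 11.10, 10.97 and 10.83, a change of 0.06. By its brighter probe set, Ldhb exceeded Ldha on 5 of 6 arrays, with equal signals on wild-type replicate 2. By the other, Ldhb was just below Ldha on wild-type replicates 2 and 3, at 10.97 against 10.99 and 10.83 against 10.84.

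The monocarboxylate transporters carry lactate and pyruvate across the cell membrane. Slc16a1, which encodes MCT1, the transporter of oxidative muscle, was the brighter on all arrays, at 9.46, 9.46 and 9.32 in the knockout against 9.42, 9.33 and 9.45 in the wild type. Slc16a3, which encodes MCT4, the exporter of glycolytic cells, was dim, at 5.07, 5.0 and 5.09 against 4.97, 5.12 and 5.13. Both overlapped between genotypes, with changes of 0.01 and -0.02 and 95% confidence intervals from -0.14 to 0.17 and from -0.23 to 0.19.

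Of the 10 glycogen genes, 1 (10%) had an unadjusted p under 0.05, near the 13.7% of all probe sets, and 8 differed by less than 0.1. That gene was Ugp2, which makes the UDP-glucose that glycogen synthase uses, with signals of 8.61, 8.47 and 8.44 in the knockout against 8.67, 8.78 and 8.66 in the wild type. The genotypes were apart by only 0.05, and the log2 change was -0.20 (95% confidence interval -0.36 to -0.03, limma adjusted p = 0.289). Gys1, the muscle glycogen synthase, was nearly level, with 8.48, 8.49 and 8.47 against 8.51, 8.47 and 8.56. Its change of -0.03 had a 95% confidence interval from -0.16 to 0.10. Gyg, glycogenin, which primes the chain, and Gbe1, the branching enzyme, measured changes of 0.08 and -0.05 with overlap.

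Glycogen phosphorylase cuts glucose 1-phosphate from the chain. Pygm, the muscle isoform and the brightest of the glycogen genes on all arrays, measured 11.33, 11.33 and 11.31 in the knockout against 11.40, 11.36 and 11.36 in the wild type. Pygb, the brain-type isoform, measured 11.06, 11.07 and 11.04 against 10.97, 10.93 and 10.99. Neither gene overlapped between genotypes, yet the changes of -0.05 and 0.09 were small and their confidence intervals held 0, from -0.16 to 0.06 and from -0.02 to 0.20. Phka1 and Phkg1, a regulatory and a catalytic subunit of the kinase that switches phosphorylase on, had changes of -0.07 and -0.16 with overlap. Phkg1 had the widest spread of any gene of the set, with 5.89, 5.91 and 5.80 in the knockout against 5.67, 5.90 and 6.51 in the wild type, and its change became 0.08 without wild-type replicate 3. Pgm1 moves phosphate between carbons 1 and 6 of glucose. Pgm1 and its relative Pgm2 had changes of 0.06 and 0.02 with overlap, and Pgm1 was the brighter on all arrays.

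Isoforms of 1 step were also compared within each array, since the difference of 2 log2 signals from 1 array is free of that array's overall brightness. Of 12 pairs, chosen with earlier results of these data known, 10 had both genes measured, and 3 of the 10 did not overlap between genotypes. The share without overlap among pairs of other probe sets was not computed. Among single probe sets tested it was 19.0%. An exact permutation test of 3 against 3 arrays cannot go below 0.1, and these 3 pairs had that p (two-sided), or 0.333 after Benjamini-Hochberg adjustment over the 10 pairs. The log2 difference of Pgam1 minus Pgam2 was -2.74, -2.67 and -3.28 in the knockout against -2.60, -2.46 and -2.42 in the wild type, a shift of -0.40 that was -0.21 without knockout replicate 3. For Pygb minus Pygm it was -0.27, -0.26 and -0.27 against -0.43, -0.43 and -0.37. This shift of 0.14 toward the brain-type phosphorylase lay between 0.12 and 0.16 in all 8 alternatives run for the pairs. The SDs within the genotypes were 0.006 and 0.03, for a pair described here because it did not overlap. For Ldha minus Ldhb the difference was -0.36, -0.25 and -0.43 against -0.21, 0.00 and -0.09. Its shift of -0.25 overlapped between genotypes after quantile normalization, at -0.21, and with the mean of both Ldhb probe sets, at -0.22. The other 7 pairs overlapped, with shifts from -0.11 for Slc2a1 minus Slc2a4 to 0.14 for Pfkp minus Pfkm. Without knockout replicate 2 there were 6 pairs without overlap, and 5 without wild-type replicate 3. With 2 arrays against 3 the smallest p is 0.2, and dropping an array can remove an overlap but cannot add one, so these counts cannot fall.

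**Figure D4:**
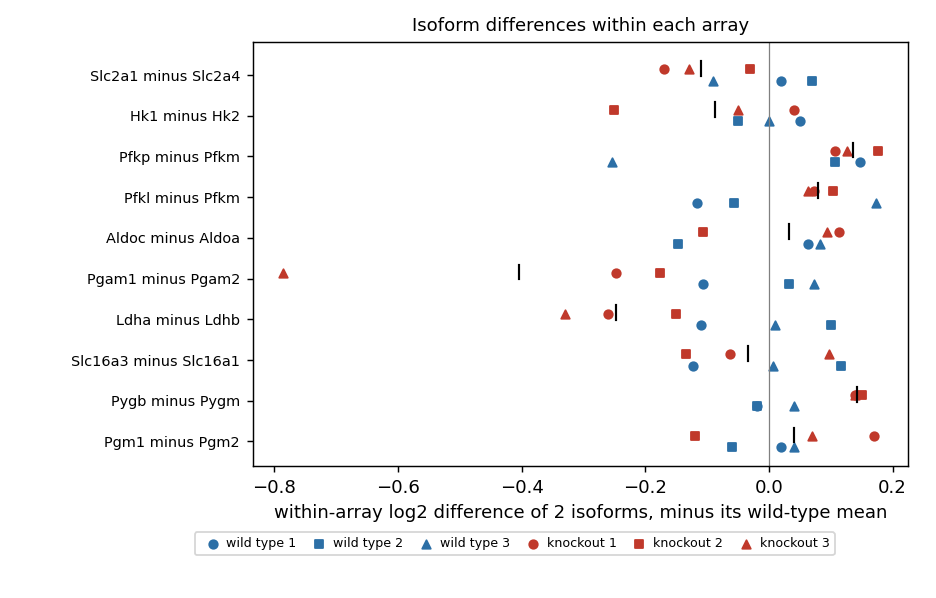
Log2 difference between 2 isoforms of 1 step within each array, minus its wild-type mean (horizontal axis), for the 10 measured pairs. Blue symbols are wild-type and red symbols knockout arrays, and black ticks mark the knockout mean. The genotypes are apart for Pgam1 minus Pgam2, Ldha minus Ldhb and Pygb minus Pygm, and the 3 knockout arrays of the last pair nearly coincide.

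A further list of 69 genes of the same pathway and its control was read from the same test, of which 64 were measured and 57 passed the filter. None passed the adjusted threshold. The unadjusted p was under 0.05 for 9 of 57 (15.8%), close to the 13.7% of all probe sets, with 3 higher and 6 lower in the knockout. Gapdh, the glyceraldehyde 3-phosphate dehydrogenase, had only probe sets shared with other symbols, 25 in all, and is not described.

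Among regulators of glucose use, 3 of 15 (20%) had an unadjusted p under 0.05, all lower, beside 13.7% of all probe sets in either direction and 9.02% lower. Tbc1d4, which encodes the AKT substrate AS160 that holds GLUT4 inside the cell until insulin acts, measured 7.56, 7.60 and 7.62 in the knockout against 7.85, 7.78 and 7.87 in the wild type. Its log2 change was -0.24 (SE 0.06, limma adjusted p = 0.157). Mef2a, a muscle transcription factor known to act on the Slc2a4 promoter in mice, measured 9.68, 9.70 and 9.65 against 9.86, 9.97 and 9.85, a change of -0.22 (SE 0.06, limma adjusted p = 0.166). Prkaa2, the main catalytic subunit of AMP-activated kinase in muscle, measured 8.76, 8.87 and 8.65 against 9.04, 9.09 and 8.97, a change of -0.27 (SE 0.07, limma adjusted p = 0.18). Each of these 3 genes was lower on every knockout array than on any wild-type array, and 3 of 15 without overlap (20%) is near the 19.0% of all probe sets. Slc2a12, which encodes the transporter GLUT12, had a change of -0.31, with overlap through wild-type replicate 3.

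Of the other genes that passed the filter, 2 of 5 of lactate and pyruvate handling (40%) had an unadjusted p under 0.05. For glycogen it was 3 of 19 (15.8%), near the 13.7% of all probe sets tested. The limma adjusted p of these genes ran from 0.203 for Gsk3a to 0.332 for Pgm2l1. Mpc1, a subunit of the mitochondrial pyruvate carrier, measured 11.26, 11.22 and 11.26 in the knockout against 11.19, 11.02 and 11.04 in the wild type, a log2 change of 0.16. Bsg, basigin, the partner that brings MCT1 to the membrane, measured 10.96, 11.04 and 10.84 against 11.10, 11.15 and 11.10, a change of -0.17. Gsk3a, a kinase that inhibits glycogen synthase, had a change of -0.33, without overlap between genotypes. Pygl, the liver phosphorylase, measured 5.28, 5.18 and 5.10 against 4.80, 4.94 and 4.90, a change of 0.31. Pgm2l1, a glucose 1,6-bisphosphate synthase, had a change of 0.26, also without overlap. None of 11 further genes of glycolysis had an unadjusted p under 0.05.

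**Figure D5:**
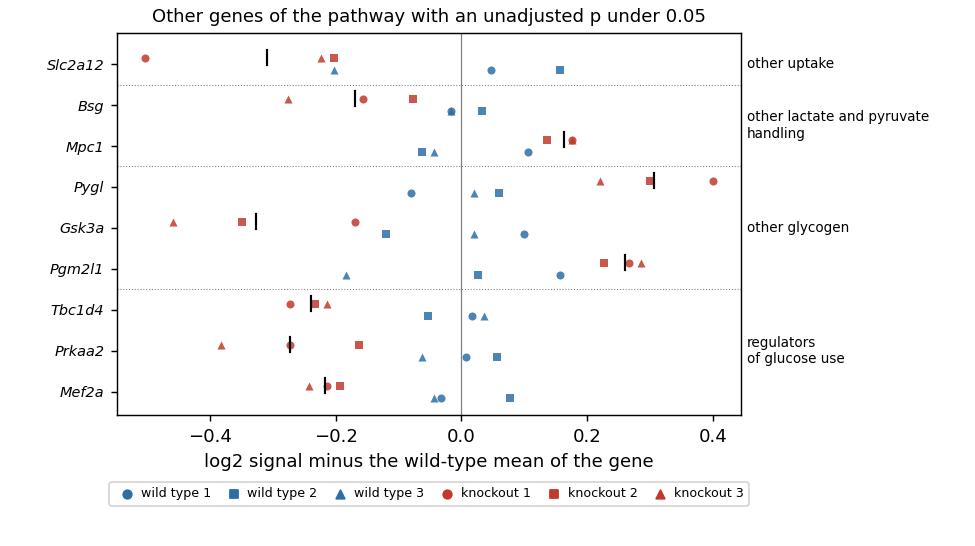
Log2 signal of the 9 other pathway genes with an unadjusted p under 0.05 on each of the 6 arrays, minus the wild-type mean of the gene (horizontal axis), grouped by role. Blue symbols are wild-type and red symbols knockout arrays, and black ticks mark the knockout mean. Slc2a12 is the 1 gene whose genotypes overlap.

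When the test was limited to annotated probe sets, 2.01% of all 17934 passed the adjusted threshold and 0 of the 32 genes did, with the smallest adjusted p again for Pgam2, at 0.0780.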

How the data were processed

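The authors deposited 1 table of log2 signals, with 35556 probe sets and 1 column for each of 6 arrays. Per the submitters' processing notes the tool is MAS5, with its role and version not given. The labels used here do not describe background correction, summarization or scaling, and the log2 scale was settled from the values, which ran from 0.46 to 13.72. The number of arrays limits the precision.

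Symbols came from the platform annotation, updated by gene identifier through the RefSeq table of GRCm38.p6 (21698 of 21789 probe sets with 1 symbol matched). Genotypes were compared with limma 3.58.1 in R 4.3.3 (lmFit, eBayes with an intensity trend), knockout minus wild type, two-sided, over the 24898 probe sets whose mean was at or above the 30th percentile (3.45), with Benjamini-Hochberg adjustment over all of them at 0.05. The fit was run on simulated data whose changes were far larger than those of the genes of the set. That run does not show how changes of their size are called. SDs are over 3 arrays, and confidence intervals are limma's. Summed marker signals are log2 of the sum of linear signals. Isoform pairs were tested with exact permutation in SciPy 1.17.1. The genes given array by array are those without overlap and with an unadjusted p under 0.05, the brightest isoform of each step and pairs without overlap, with other genes of the set added after their values were seen. Of the other pathway genes, those with an unadjusted p under 0.05 are named.

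The genes, lists, pairs and tests were chosen with earlier results of these data known, and the promoter motifs after the sequences were seen. Alternatives were other scalings, filters, variance models, age as covariate, the label number as block, annotated probe sets alone, averaging the probe sets of each gene and leaving out each array. Same-numbered samples did not deviate together (correlations of -0.06, 0.02 and -0.06), and the main test did not pair them. The labels do not say what the numbers mean, and with so few arrays a weak pairing could go unseen.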

Additional observations from a re-analysis of the deposited data

How the results depend on the processing

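All 8 genes of the set with an unadjusted p under 0.05 kept their direction in each of the 16 alternatives. For these 8, whose genotypes do not overlap, leaving out an array could not turn the sign. Settings that alter only the filter, the variance model or the block keep the same change, so this count adds little support. Of all 32 genes 18 never turned in sign, Aldoc over 15 alternatives since the stricter filter left it out. The number of genes past the adjusted threshold stayed 0 except after quantile normalization, where it was 1, Pgam2. Probe sets past that threshold numbered 130 after quantile normalization, 105 after median centring, 48 with the filter at the 50th percentile, 126 with array weights, 34 with age as a covariate, 0 with the replicate block and 361 among annotated probe sets, against 1 in the main test. Leaving out 1 array gave 0 to 12. With the replicate block, which takes the label numbers as pairs, 7 genes of the set had an unadjusted p under 0.05. Cavin4 then kept its log2 change of -2.91 with an adjusted p of 0.0754. Without 1 array Cavin4 ranged from -3.115 to -2.775, with an adjusted p from 0.00236 to 0.119.

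Genes of the set with an unadjusted p under 0.05 numbered 5, 3 of them lower, without the intensity trend. Those higher numbered 5 after quantile normalization and 5 after median centring. Without 1 array the count ran from 4 to 10 (12.5% to 31.25%, beside 9.28% to 13.4% of all probe sets), with 1 to 4 higher and 3 to 6 lower, and the other pathway genes from 7 to 10, with 1 to 3 higher. The median change of the set was 0.0133 after quantile normalization, where that of all probe sets was -0.008. Pairs without overlap ran from 3 to 6 without 1 array. No alternative moved the median change of all probe sets by over 0.1.

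Small changes turned in sign. Slc16a3 and Gys1 measured 0.0139 and 0.0128 after quantile normalization, and Hk1, Pkm and Slc16a1 0.0117, -0.022 and -0.0577 with age as a covariate. Without 1 array, Tpi1 ran from -0.0283 to 0.0517, Pgk1 ran from -0.01 to 0.04, Pkm ran from -0.0533 to 0.0783, Slc16a1 ran from -0.0217 to 0.06, Hk1 ran from -0.115 to 0.05, Slc16a3 ran from -0.0717 to 0.0083, Pgm2 ran from -0.0417 to 0.0633, Slc2a3 ran from -0.1117 to 0.0283, Hk2 ran from -0.01 to 0.055, Pfkfb2 ran from -0.0333 to 0.2667, Pfkfb3 ran from -0.0983 to 0.0167, Pgam1 ran from -0.2567 to 0.0133, Phkg1 ran from -0.3383 to 0.0817, Aldoc minus Aldoa ran from -0.04 to 0.1033, Pgm1 minus Pgm2 ran from -0.025 to 0.12 and Slc16a3 minus Slc16a1 from -0.0983 to 0.025.
The causes of these shifts were not tested. Dim probe sets such as Aldoc limit what a change can show.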
